A study of Mus musculus with 9 samples.

Results

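The Hippo pathway genes described here comprised Yap1 and Wwtr1, which encode the coactivators YAP and TAZ, the TEAD transcription factor genes Tead1, Tead2 and Tead4, and Lats2, Amotl2, Ajuba, Ankrd1 and Axl. They were taken by gene symbol from the table of read counts, with earlier results of these data known. These were 10 of 55401 genes in the table. All 10 passed the filter on low counts, which left 15717 genes to test.

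RNA was sequenced from whole livers of 9 female mice obtained at 6 weeks of age, with 3 livers per group. Untreated HCC livers came from mice in which hepatocellular carcinoma was driven by hydrodynamic injection of sleeping beauty transposon plasmids for myr-AKT, under the EF1α promoter, and Nras-v12, under the CAGGS promoter. These mice then received blank AAV8, an adeno-associated virus that transduces liver, 1 week after the oncogenes. miR-22-treated HCC livers came from mice given the same oncogenes and then AAV8-miR-22 on the same schedule, and both HCC groups were harvested 5 weeks after the oncogenes. For the healthy livers no oncogene, virus or age at harvest is given. The strain was FVB/N by the methods of the study, although a field of the sample descriptions reads C57BL/6. Neither promoter is restricted to hepatocytes, and each library was 1 liver. The paper gives the RNA source as the HCCs in its methods and as livers of HCC mice in its results. It describes no separation of tumor from surrounding tissue. Libraries held between 16664659 and 23908392 counts. Hepatocyte markers, led by Alb, were abundant in every liver, at 49380 to 126910 CPM (counts relative to the TMM effective library size) in sum over 7 genes.

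Hippo signaling is a kinase cascade in which the MST kinases activate LATS kinases, and LATS kinases phosphorylate YAP and TAZ and so keep them out of the nucleus. When the cascade is low, YAP and TAZ enter the nucleus, bind TEAD factors on DNA and raise transcription of targets such as Ankrd1, Ccn1 and Ccn2. In the liver the pathway is known for limiting organ size and for separating hepatocyte from biliary identity. RNA levels report neither the phosphorylation nor the location of these proteins.

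TEAD factors bind the letters CATTCC, which read GGAATG on the other strand. Promoter windows from RefSeq (GRCm38.p6), 250 bases before to 50 after a transcription start, were searched for these letters on both strands, the 2 forms counted together. The members had a window for 8 genes, and 7 of the 8 (87.5%) held the letters, against 16.6% of 27025 genes with a window. Tead2 was the member without them, and Tead1 and Tead4 had no window to search. Among other genes of the pathway they stood in 8 of 22 (36.4%), and among other known targets of YAP and TAZ in 3 of 11 (27.3%). A match of these letters is a description and does not show binding. The 4 windows are shown because they belong to the target that changed most, to the adaptor that changed most, and to members that were not called in any comparison. Each was found exactly once in GRCm39, with the coordinates of that build given here, and capitals mark the letters searched. They come from the C57BL/6J reference. The Ankrd1 window lies at chr19:36097195-36097494 on the minus strand, with matches starting 210 and 123 bases before the transcription start.
Ankrd1: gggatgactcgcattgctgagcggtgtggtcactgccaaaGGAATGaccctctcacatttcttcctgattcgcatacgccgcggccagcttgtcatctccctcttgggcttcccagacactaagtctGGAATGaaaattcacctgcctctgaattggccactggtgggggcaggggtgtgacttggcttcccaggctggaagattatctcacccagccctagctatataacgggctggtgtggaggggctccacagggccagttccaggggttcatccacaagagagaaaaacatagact
The Ajuba window lies at chr14:54815069-54815368 on the minus strand, with matches starting 186 and 164 bases before the start.
Ajuba: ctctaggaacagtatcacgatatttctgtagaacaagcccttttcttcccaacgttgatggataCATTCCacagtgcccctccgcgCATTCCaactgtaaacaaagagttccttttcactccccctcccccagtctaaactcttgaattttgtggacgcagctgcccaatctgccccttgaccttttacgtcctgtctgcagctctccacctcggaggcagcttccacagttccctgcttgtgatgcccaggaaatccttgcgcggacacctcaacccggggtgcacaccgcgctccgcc
The Yap1 window lies at chr9:8004548-8004847 on the minus strand, with its match 141 bases before the start.
Yap1: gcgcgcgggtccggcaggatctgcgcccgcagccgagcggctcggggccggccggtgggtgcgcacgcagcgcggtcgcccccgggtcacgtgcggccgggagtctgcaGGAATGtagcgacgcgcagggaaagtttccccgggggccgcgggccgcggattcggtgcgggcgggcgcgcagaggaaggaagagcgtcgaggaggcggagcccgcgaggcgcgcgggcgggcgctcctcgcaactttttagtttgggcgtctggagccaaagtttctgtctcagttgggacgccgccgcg
The Amotl2 window lies at chr9:102594753-102595052 on the plus strand, with its match 65 bases before the start.
Amotl2: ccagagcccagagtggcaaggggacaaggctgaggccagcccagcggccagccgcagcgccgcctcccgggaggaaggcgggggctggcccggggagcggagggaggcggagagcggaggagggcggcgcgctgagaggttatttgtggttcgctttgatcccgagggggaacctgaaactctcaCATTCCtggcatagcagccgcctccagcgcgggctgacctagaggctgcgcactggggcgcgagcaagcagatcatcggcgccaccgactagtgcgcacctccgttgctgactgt

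The untreated HCC livers had the highest group mean for each of the 10 members. Of these, 7 rose against healthy liver and none fell, and 3 were not called. The miR-22-treated livers lay between the other groups for 8 members by group mean and below both for Yap1 and Amotl2. Among the 8 was Wwtr1, with means of 781 and 793 in miR-22-treated and untreated HCC and overlapping livers. How many of all tested genes follow these orders was not counted. With miR-22, 5 members fell against untreated HCC, namely Tead1, Tead2, Tead4, Ankrd1 and Ajuba, and none rose. That count was 2 without untreated HCC replicate 3 or without miR-22-treated replicate 3. In these fits 479 of 16056 and 407 of 16237 tested genes were called lower, against 839 of 15717 with all livers. Against healthy liver, 6 members were still higher in the miR-22-treated livers and none was lower. A gene was called at an adjusted p under 0.05 by edgeR's quasi-likelihood test with a fold change over 1.5. The adjustment (Benjamini-Hochberg) ran over all tested genes.

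These counts stand beside the share of all tested genes that moved. In untreated HCC against healthy liver, 22.7% of tested genes were called higher and 17.9% lower, 40.6% in all. With miR-22 against untreated HCC, 8.02% were called higher and 5.34% lower, 13.4% in all. For miR-22-treated against healthy liver the shares were 16.9% and 6.78%, 23.6% in all. The 3 livers of one group did not overlap with the 3 of the other for 9 members in untreated HCC against healthy liver, for 7 with miR-22 against untreated HCC, and for 8 in miR-22-treated against healthy liver. Over all tested genes such a gap was found for 65.3%, 39.3% and 48.8%. The median log2 fold change of the members was 1.11, −0.46 and 0.81 in these 3 comparisons, and that of all tested genes 0.01, 0.002 and 0.02. The 3 comparisons share livers, so they are not separate evidence.

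**Figure D1:**
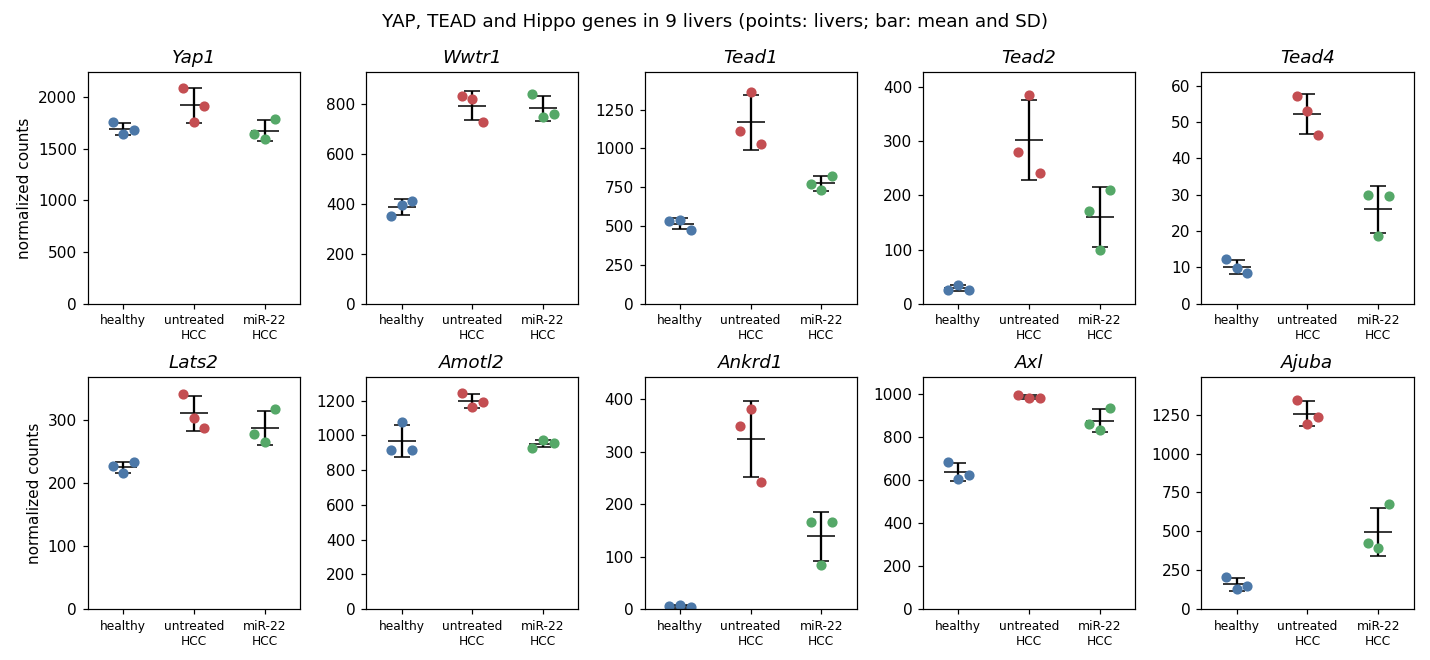
Normalized counts (y axis, linear, from 0) of the 10 members in healthy liver, untreated HCC and miR-22-treated HCC, with a point for each liver and a bar for the mean ± SD (n = 3). Ankrd1, Ajuba, Tead2 and Tead4 separate the 3 groups with untreated HCC on top, whereas the Yap1 groups overlap.

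Yap1 (GRCm39 chr9:7932000-8004661, minus strand), the gene of the coactivator YAP, was not called in any comparison. Its normalized counts, scaled for library size and composition, were 1756, 1644 and 1679 in healthy livers and 2091, 1755 and 1917 in untreated HCC. The miR-22-treated livers held 1641, 1591 and 1789.5. The groups overlapped in every comparison. Untreated HCC was 1.13-fold of healthy liver (log2 0.18, SE 0.089, 95% interval of the fold 0.994 to 1.29, edgeR adjusted p = 0.0961). The miR-22-treated livers were 1.15-fold lower than untreated HCC (adjusted p = 0.124, edgeR), with an interval of −0.39 to −0.0076 on the log2 scale.

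Wwtr1 (chr3:57363067-57483331, minus strand), which encodes the related coactivator TAZ, rose in HCC and stayed up with miR-22. Healthy livers held 350.0, 394 and 413 normalized counts, and untreated HCC livers 831, 821 and 727. The miR-22-treated livers held 839, 746 and 759.5, which overlapped with untreated HCC and lay wholly above healthy liver. The gene was 2.06-fold higher in untreated HCC (log2 1.04, SE 0.10, edgeR adjusted p = 9.12e-07) and 2.03-fold higher in miR-22-treated HCC (adjusted p = 3.82e-06) than in healthy liver. Between the HCC groups the log2 difference was −0.02 (95% interval −0.23 to 0.19, edgeR adjusted p = 0.906). Per kilobase of transcript, Wwtr1 made up 16.9% ± 1.56 (SD, n = 3) of the 2 coactivators in healthy liver, 26.9% ± 2.19 in untreated HCC and 29.4% ± 1.93 in miR-22-treated HCC.

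The TEAD genes encode the DNA-binding partners of YAP and TAZ, and Tead1, Tead2 and Tead4 each rose in HCC and fell with miR-22. Tead1 (chr7:112278522-112506014, plus strand) held 532, 538 and 476 normalized counts in healthy livers, 1109, 1364 and 1028 in untreated HCC and 771, 731 and 825 in miR-22-treated HCC. The 3 groups did not overlap. It was 2.26-fold higher in untreated HCC (log2 1.18, SE 0.11, edgeR adjusted p = 6.83e-07) and fell 1.503-fold with miR-22 (log2 −0.59, SE 0.11, adjusted p = 0.00185). Both the fall and the remaining 1.51-fold excess over healthy liver (adjusted p = 0.00091, edgeR) lay at the edge of the fold threshold. The fall was −0.46 without untreated HCC replicate 3 and −0.55 without miR-22-treated replicate 3, both under the threshold. The excess was 0.52 without healthy replicate 3, and 0.58 and 0.54 without miR-22-treated replicates 2 and 4.

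Tead2 (chr7:44865172-44883071, plus strand), low in healthy liver, rose more in untreated HCC than Tead1 and Tead4 did by their estimates. Its normalized counts were 25.6, 35.4 and 25.6 in healthy livers and 280.0, 386 and 242 in untreated HCC. The miR-22-treated livers held 172, 99.0 and 209, between the other groups and with no overlap. The rise in untreated HCC was 10.5-fold (log2 3.39, SE 0.30, edgeR adjusted p = 7.94e-07), and the fall with miR-22 was 1.87-fold (log2 −0.91, SE 0.25, adjusted p = 0.0181). That fall lost its call without untreated HCC replicate 3 (log2 −0.70, edgeR adjusted p = 0.0901) or miR-22-treated replicate 3 (−0.66, adjusted p = 0.0561). Tead2 shares 223 bases with Cd37 on the opposite strand, and the libraries kept no strand, so reads from those bases cannot be told apart. Cd37 held 557 counts over all 9 libraries.

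Tead4 (chr6:128201251-128277786, minus strand) was the least abundant TEAD gene per kilobase in every group. Healthy livers held 12.2, 9.78 and 8.53 normalized counts, untreated HCC livers 57.3, 53.0 and 46.4, and miR-22-treated livers 30.0, 18.6 and 29.5. The groups again stood apart. The gene was 5.10-fold higher in untreated HCC (log2 2.35, SE 0.35, edgeR adjusted p = 4.43e-05) and 1.99-fold lower with miR-22 (log2 −0.99, SE 0.30, adjusted p = 0.0291). The second call was lost without untreated HCC replicate 2 (adjusted p = 0.102) or 3 (0.084) or miR-22-treated replicate 3 (0.127), and with no filter on low counts (0.0621), all by edgeR. The miR-22-treated livers remained 2.57-fold above healthy liver (adjusted p = 0.00944, edgeR).

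The fourth gene of the family, Tead3, overlapped between all groups, with normalized counts of 209 to 262 in healthy, 183 to 231 in untreated and 197 to 240 in miR-22-treated livers. Its log2 fold change was −0.17 in untreated HCC (edgeR adjusted p = 0.332) and 0.02 with miR-22 (adjusted p = 0.94). The makeup of the family was taken from normalized counts per kilobase of the canonical transcript. Tead3 was 57.2% ± 2.27 (SD, n = 3) of the family in healthy liver, 23.1% ± 2.86 in untreated HCC and 34.2% ± 4.77 in miR-22-treated HCC. Tead2 was 8.61% ± 1.55, 40.4% ± 3.19 and 30.8% ± 7.09 in the same order. The shares of Tead2 in untreated and miR-22-treated livers overlapped, with 37.1% to 43.5% against 23.3% to 37.4%. Tead1 held a share of 33.1%, 33.9% and 33.1%. The sum of the 4 genes was 156 ± 13.9 per kilobase in healthy liver, 346 ± 58.9 in untreated HCC and 237 ± 34.6 in miR-22-treated HCC.

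**Figure D2:**
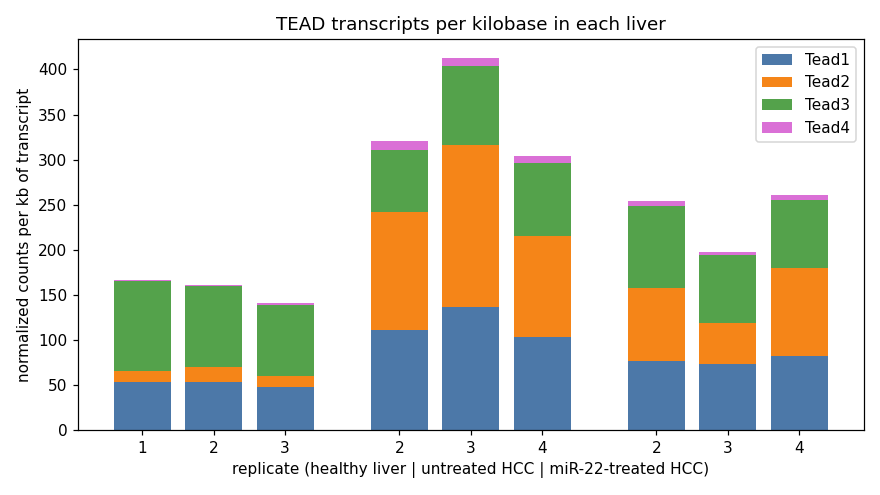
Normalized counts per kilobase of canonical transcript (y axis) of Tead1, Tead2, Tead3 and Tead4, stacked for each of the 9 livers (x axis, replicate numbers by group). The Tead2 segment is thin in the 3 healthy livers and is the tallest in untreated HCC, while the Tead3 segment differs little between groups.

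Lats2 (chr14:57926960-57995845, minus strand) encodes a kinase that phosphorylates YAP and TAZ and is also a known YAP target. Healthy livers held 228, 216 and 233 normalized counts, untreated HCC livers 342, 303 and 288 and miR-22-treated livers 278.5, 266 and 318. Both HCC groups lay above healthy liver without overlap, and they overlapped with each other. The differences from healthy liver passed the adjusted p at 1.38-fold in untreated HCC (log2 0.46, SE 0.12, edgeR adjusted p = 0.00561) and 1.27-fold in miR-22-treated HCC (adjusted p = 0.0415), but not the fold threshold, so Lats2 was not called.

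Amotl2 (chr9:102593836-102610617, plus strand) encodes an angiomotin family protein that binds YAP, and it is also a known YAP target. Its normalized counts were 914, 1076 and 917 in healthy livers, 1241, 1162 and 1191 in untreated HCC and 929, 971 and 954 in miR-22-treated HCC. The untreated livers lay above all others, and the miR-22-treated livers overlapped with healthy ones. The log2 difference was 0.31 in untreated HCC against healthy liver (SE 0.086, edgeR adjusted p = 0.00722) and −0.33 with miR-22 (SE 0.086, adjusted p = 0.0125), both under the fold threshold.

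Ajuba (chr14:54804787-54815027, minus strand) encodes a LIM domain adaptor that binds and restrains LATS kinases. It went from 204, 126 and 147 normalized counts in healthy livers to 1346, 1192 and 1234 in untreated HCC. With miR-22 the livers held 422, 391 and 674. The 3 groups did not overlap, and among miR-22-treated livers replicate 4 was well above the other 2. The rise was 7.92-fold (log2 2.98, SE 0.23, edgeR adjusted p = 1.58e-06). The fall with miR-22 was 2.53-fold (log2 −1.34, SE 0.21, adjusted p = 0.00157), the greatest of the 10 members, and the call held in all alternatives tried. The gene remained 3.13-fold above healthy liver (adjusted p = 0.000316, edgeR).

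Ankrd1 (chr19:36089352-36097506, minus strand), a nuclear ankyrin repeat protein gene much used as a readout of YAP, was very low in healthy liver, with 4, 7 and 3 raw counts. Untreated HCC livers held 349, 381 and 243 normalized counts and miR-22-treated livers 165, 84.1 and 165, against 4.88, 8.56 and 3.20 in healthy livers. There was no overlap in any comparison. The rise in untreated HCC was 58.2-fold (95% interval 32.6 to 104, log2 5.86, SE 0.39, edgeR adjusted p = 6.49e-08), with the width of the interval set by the few healthy counts. The gene fell 2.33-fold with miR-22 (log2 −1.22, SE 0.25, adjusted p = 0.00424, edgeR). It was still 24.98-fold above healthy liver (95% interval 13.6 to 45.8, edgeR adjusted p = 2.34e-06).

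Axl (chr7:25456535-25488329, minus strand), a receptor tyrosine kinase gene and known YAP target, changed less. Healthy livers held 685, 606 and 625 normalized counts, untreated HCC livers 997, 979 and 981 and miR-22-treated livers 860.0, 831 and 936. The groups stood apart in all 3 comparisons. The gene was 1.54-fold higher in untreated HCC (log2 0.63, SE 0.087, edgeR adjusted p = 2.58e-05). Without healthy replicate 2 this was 0.58 on the log2 scale, under the fold threshold. With miR-22 the log2 difference was −0.17 (SE 0.086, 95% interval −0.35 to 0.013, edgeR adjusted p = 0.171). The miR-22-treated livers were 1.37-fold above healthy liver (adjusted p = 0.00101, edgeR), under the fold threshold.

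**Figure D3:**
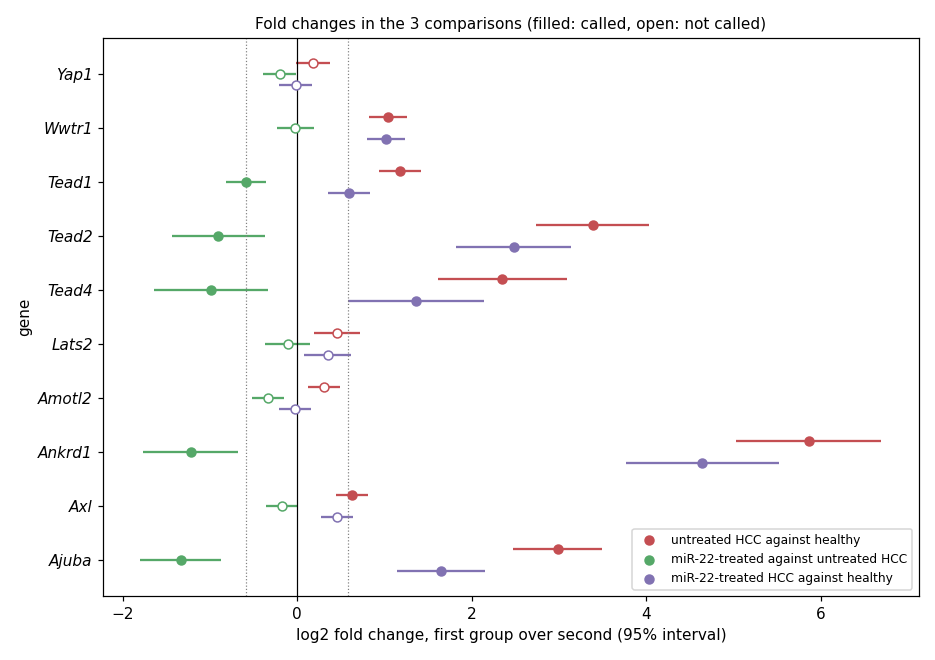
Log2 fold changes of the 10 members (y axis) with 95% intervals in the 3 comparisons, filled where called and open where not, with dotted lines at 1.5-fold in either direction. Ankrd1 reaches 5.86 in untreated HCC against healthy liver, and the points for miR-22 against untreated HCC lie between −1.34 and −0.02.

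Within the HCC groups the same liver was often the lowest or the highest across members. Among miR-22-treated livers replicate 3 held the lowest value for 9 of the 10 members, all but Amotl2, and replicate 4 the highest for 6. Replicate 3 also had the lowest cholangiocyte and stellate cell marker sums of the 3 (1588 and 697 CPM) and the highest hepatocyte sum (91861), and replicate 4 the reverse (2739, 794 and 74183), and the part of this in the order was not tested. Among untreated livers replicate 2 was highest for 7 members and replicate 4 lowest for 6. There the stellate cell sum was highest in replicate 2 (974 CPM) and lowest in replicate 4 (844). The cholangiocyte sum was instead highest in replicate 3 (6302, against 4716 in replicate 2), and the hepatocyte sum lowest in replicate 3 (49380, against 52699). Healthy livers showed no such order among members, with 2 to 4 members at the lowest value in each. How often each liver is lowest or highest over all tested genes was not counted.

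Between members, levels can be compared per kilobase of transcript. Yap1 led in all groups, at 404 ± 13.7 (SD, n = 3) in healthy liver, 459 ± 40.2 in untreated HCC and 400 ± 24.6 in miR-22-treated HCC, with no overlap with the member ranked next. Amotl2 and Axl followed in healthy liver with 224 and 138 per kilobase. In untreated HCC Ajuba ranked behind Yap1 with 370 ± 23.4, against 46.7 ± 11.8 in healthy liver, where its range overlapped with those of Tead1 and Lats2. Ankrd1 ranked sixth there with 160 ± 35.8, against ninth in healthy liver with 2.74 ± 1.35. The ranges of Wwtr1, Ankrd1, Tead2 and Tead1 overlapped from each to the next in untreated HCC, so their order is not set. Tead4 had the lowest mean of the 10 in every group, at 1.71, 8.80 and 4.39 per kilobase. In healthy liver its range overlapped with that of Ankrd1, so their order there is not set.

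From a list of 26 further Hippo genes (kinases, scaffolds, junction and cofactor genes), 24 were tested, and Vgll1 and Vgll2 were too low. In untreated HCC against healthy liver 7 of the 24 rose and none fell, beside 22.7% called higher among all tested genes, with a median log2 fold change of 0.11 over the list. Map4k4, a kinase that acts beside the MST kinases on LATS, rose from 262 to 287 normalized counts in healthy livers to 1671 to 1949 (log2 2.73, SE 0.11, edgeR adjusted p = 6.05e-10). Wtip, an adaptor related to Ajuba, rose by a log2 of 2.35 (adjusted p = 6.78e-07, edgeR), and Frmd6, a FERM domain scaffold, by 1.89 (adjusted p = 1.05e-06, edgeR).

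With miR-22 against untreated HCC, 4 of the 24 fell and none rose, beside 5.34% called lower among all tested genes, with a median of −0.16. Map4k4 fell to 938 to 1204 normalized counts (log2 −0.81, SE 0.10, edgeR adjusted p = 0.000166). Frmd6 fell by 0.95 on the log2 scale (adjusted p = 0.00168, edgeR) and Wtip by 0.89 (adjusted p = 0.00566, edgeR). The remaining one, Vgll3, a TEAD cofactor named after its values were seen, fell by 1.05 (adjusted p = 0.0354, edgeR). Vgll3 was low, with means of 58.5 and 28.0 normalized counts in untreated and miR-22-treated HCC. The count of 4 went down to 3 with 1 library left out, while Map4k4, Frmd6 and Wtip kept their calls in each such fit. Against healthy liver 6 of the 24 were higher in miR-22-treated livers and none lower, beside 16.9% called higher among all tested genes, with a median of 0.12. The smallest p there belonged to Map4k4 (log2 1.92, edgeR adjusted p = 2.79e-08), Amot, an angiomotin (0.99, adjusted p = 2.55e-05), and Rassf1, which binds MST kinases (1.27, adjusted p = 0.000174).

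From a list of 18 further genes known as YAP and TAZ targets, 17 were tested and Foxf2 was too low. In untreated HCC against healthy liver 10 of the 17 rose and 1 fell, beside 22.7% and 17.9% of all tested genes, with a median log2 fold change of 1.29. Myof, a membrane repair protein gene, rose from 102 to 117 normalized counts to 630 to 848 (log2 2.83, SE 0.18, edgeR adjusted p = 2.65e-08). Crim1, a BMP-binding membrane protein gene, rose by 1.56 on the log2 scale (adjusted p = 8.6e-08, edgeR) and Ccdc80, a matrix protein gene, by 1.29 (adjusted p = 1.61e-07, edgeR). The gene that fell was Nt5e, which encodes the ectonucleotidase CD73, from 1928 to 2122 normalized counts to 841 to 980.1 (log2 −1.11, SE 0.14, edgeR adjusted p = 1.76e-05). Ccn2, a matricellular protein gene and classic YAP target named after its values were seen, rose from 51.2, 85.6 and 136 normalized counts to 4303, 5472 and 3239.5 (log2 5.56, SE 0.38, edgeR adjusted p = 7.77e-06).

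With miR-22 against untreated HCC, 4 of the 17 targets fell and none rose, beside 5.34% called lower among all tested genes, with a median of −0.51. Ccn1, the sister gene of Ccn2, held 765, 833 and 746 normalized counts in untreated HCC and 461, 343 and 389 with miR-22 (log2 −0.97, SE 0.20, edgeR adjusted p = 0.00575). Ptpn14, a phosphatase gene whose product binds YAP, fell by 0.95 on the log2 scale (adjusted p = 0.00552, edgeR). Myof fell by 0.60 (adjusted p = 0.0136, edgeR), and this call was lost without untreated HCC replicate 2 (−0.55) or 3 (−0.52) or miR-22-treated replicate 3 (−0.44). Ccn2 fell by 1.01 (adjusted p = 0.0461, edgeR), to 2116, 1721 and 2632 normalized counts. Without untreated HCC replicate 3 or miR-22-treated replicate 3 the call of Ccn2 was also lost, while Ccn1 and Ptpn14 kept theirs. The count of 4 ranged from 2, without untreated HCC replicate 3 or miR-22-treated replicate 3, to 7, without healthy replicate 3. In these fits, in the same order, 479 of 16056, 407 of 16237 and 823 of 16178 tested genes were called lower.

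In miR-22-treated against healthy liver 9 of the 17 targets were higher and 3 lower, beside 16.9% and 6.78% of all tested genes, with a median of 0.80. The 3 lower were Nt5e (log2 −0.94, edgeR adjusted p = 0.000197), Nuak2, a kinase gene (−0.86, adjusted p = 0.00163), and Gadd45a, a stress response gene (−1.42, adjusted p = 0.0465). Gadd45a held 654 normalized counts in healthy replicate 1 against 220.0 and 183 in the other 2, and its call was lost without any 1 of the 6 HCC livers, with edgeR adjusted p between 0.0704 and 0.159. Without healthy replicate 1 the log2 difference was −0.63 (adjusted p = 0.0134, edgeR). Among the higher genes the smallest p belonged to Myof (log2 2.23, adjusted p = 7.42e-07), Ccdc80 (1.24, adjusted p = 8.36e-07) and Crim1 (1.12, adjusted p = 6.01e-06), all by edgeR.

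**Figure D4:**
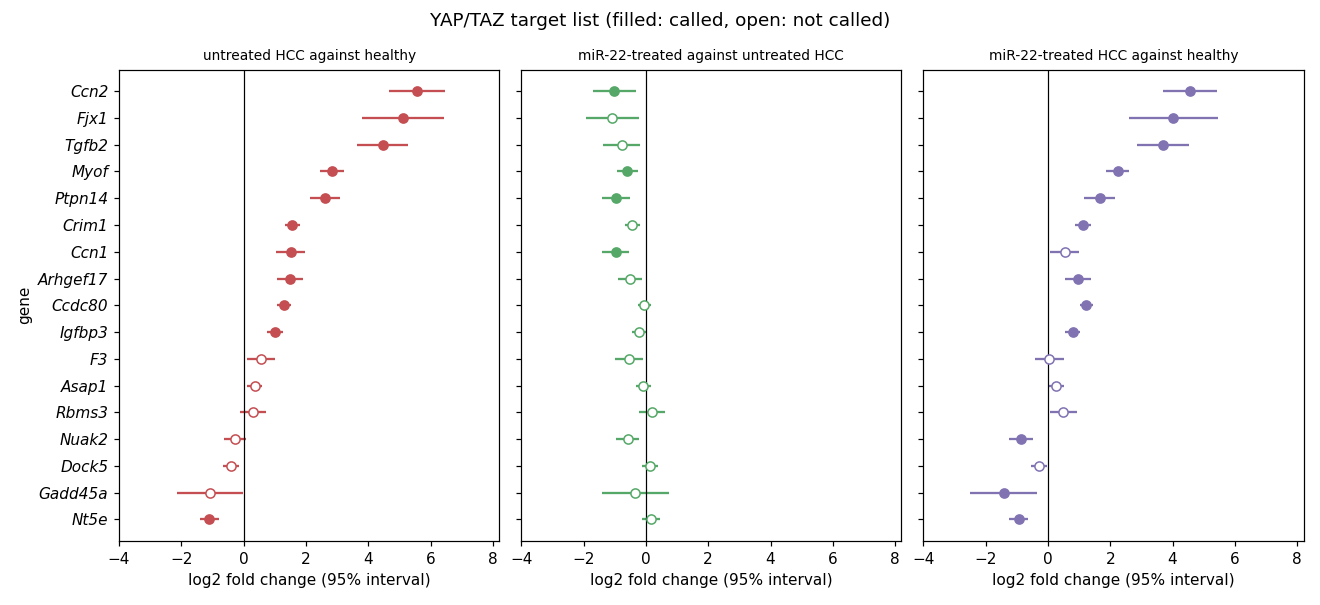
Log2 fold changes with 95% intervals of the 17 tested genes from the list of further YAP and TAZ targets (y axis) in the 3 comparisons, filled where called. In untreated HCC against healthy liver 10 filled points lie right of 0 and 1 left, and with miR-22 the 4 filled points lie left of 0.

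Marker sums of several cell types also differed between the groups, not all in the direction of these genes. Fewer cells of a type and less RNA per cell cannot be told apart in whole liver. The summed level of 8 cholangiocyte markers, led by Spp1, was 48.8 to 60.6 CPM in healthy, 3370 to 6302 in untreated and 1588 to 2739 in miR-22-treated livers, the same order as Ankrd1, Ajuba and Tead2. Of its 7 tested genes 6 rose in untreated HCC and 5 fell with miR-22. Without Spp1 the sums were 25.1 to 28.7, 131 to 226 and 60.9 to 97.5 CPM. Sox9, a biliary transcription factor gene, rose by a log2 of 4.84 (edgeR adjusted p = 1.03e-05) and fell by 1.57 with miR-22 (adjusted p = 0.00695). Krt19, a keratin gene that defines bile duct cells, was not called in either comparison (log2 0.89 and −0.01, edgeR adjusted p = 0.198 and 0.991).

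The summed level of 8 stellate cell and fibroblast markers was 353 to 423 CPM in healthy, 844 to 974 in untreated and 697 to 794 in miR-22-treated livers. Without Col3a1, the most abundant of them over all 9 livers, the sums were 309 to 376, 467 to 539.8 and 436 to 489 CPM, and the HCC groups overlapped. Of these 8 genes 4 rose and 2 fell in untreated HCC, and with miR-22 1 rose and 1 fell. All 7 hepatocyte markers fell in untreated HCC, with sums of 122100 to 126910 CPM in healthy and 49380 to 61508 in untreated livers, and 4 of them rose with miR-22. The sum of all 7 was 74183 to 91861 CPM in miR-22-treated livers, most of it Alb, which was not called there, and 14247 to 18932 without Alb. Endothelial markers summed to 349 to 438, 218 to 278 and 290.0 to 373 CPM in healthy, untreated and miR-22-treated livers. Macrophage sums were 352 to 444, 329 to 389 and 412 to 438 CPM. Lymphocyte sums were 5.49 to 8.24, 7.36 to 9.72 and 7.40 to 10.2 CPM in the same order, and of 7 tested genes 1, Nkg7, was called with miR-22 against untreated HCC (2.66-fold higher, edgeR adjusted p = 0.018). Mesothelial sums were 4.94 to 5.22, 2.91 to 4.22 and 4.75 to 8.42 CPM, with untreated livers below all others. The 8.42 was miR-22-treated replicate 3, against 4.75 and 5.28 in replicates 2 and 4. Upk3b, a mesothelial gene, fell 2.30-fold in untreated HCC (edgeR adjusted p = 0.0349) and rose 2.83-fold with miR-22 (adjusted p = 0.025). It was low, with means of 35.9, 15.5 and 44.5 normalized counts in healthy, untreated and miR-22-treated livers, and an SD of 29.0 in the last. Wt1, another of the 4 genes, rose 2.54-fold in untreated HCC (edgeR adjusted p = 0.0359) and differed by a log2 of −0.08 with miR-22. The part of these cell types in the changes of the Hippo genes was not tested.

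The mature miR-22-3p is shown from RefSeq with its seed, bases 2 to 8, in capitals, since members that fell could hold its match.
miR-22-3p: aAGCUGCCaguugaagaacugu
The 3′ UTRs of the canonical transcripts were searched for a match of 7 letters to the seed, GGCAGCT, or to its first 6 letters followed by A, GCAGCTA. A match stood in 2 of the 10 members (20.0%), against 22.0% of 13246 tested genes with a 3′ UTR. Among the 26 further Hippo genes the share was 30.8% and among the 18 further targets 27.8%. The members with a match were Wwtr1, at base 371 of its 3′ UTR, and Tead4, at base 2699, shown here with the match in capitals.
Wwtr1: gaattctgataGGCAGCTtggtccaggaa
Tead4: gtaggaaggcaGGCAGCTcagtcctgtgg
Tead4 fell with miR-22, as given above, while Wwtr1 differed by a log2 of −0.02. Tead1, Tead2, Ankrd1 and Ajuba fell and held no match in this transcript. A match is not a measured target site.

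The genes most like a member were found by the root mean square difference of log2 CPM, each gene centred on its own mean, over the 9 livers and 15197 other genes. Nearest to Yap1 were Ttyh2, Ube2e3 and Atp6v0a2, at 0.046, 0.051 and 0.053 on the log2 scale. Like Yap1 they stayed under the fold threshold, with log2 changes of 0.22 each in untreated HCC against healthy liver. Nearest to Ankrd1 were Thbs1, Col1a1 and Lox, at 0.21, 0.27 and 0.28, which encode matrix proteins and a collagen cross-linking enzyme. With a prior count of 0.5 in place of 2, Scd2, a fatty acid desaturase gene, took the place of Col1a1, while Thbs1 and Lox were again among the 3. Thbs1 was at 17.6 ± 3.51 normalized counts (SD, n = 3) in healthy liver, 1022 ± 292 in untreated HCC and 367 ± 73.9 in miR-22-treated HCC. These distances describe the 9 livers and carry no test.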

How the data were processed

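Whole-liver RNA of 9 mice was read as paired, non-directional libraries. Per the paper's methods and the submitters' processing notes, the authors checked reads with FastQC 0.11.7, quantified them with Salmon on GRCm39 and summed them per gene with tximport. The deposited counts are whole numbers for 55401 genes, neither normalized nor filtered, and the deposited normalized table was not used. Normalized counts here are the counts divided by the TMM effective library size and multiplied by its mean.

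Genes were tested in R 4.3.3 with edgeR 4.0.16 (filterByExpr, TMM, robust quasi-likelihood F test, two-sided), fitting the 3 groups together, after the script was tested on simulated data. The chi-square per degree of freedom between livers of a group was 4.73 to 20.3, above sampling noise, and the sources used here do not state how livers were spread over batches. Gene models came from GENCODE vM39 (GRCm39), which held 51731 of the identifiers when versions were ignored and 35 with the same version. The release behind the counts is not settled, so values per kilobase rest on transcript lengths that may differ from it. Likeness used log2 CPM with a prior count of 2 and genes with a mean of at least 10 counts.

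The 10 members and all gene lists were chosen with earlier results of these data known. All members were named, with the 3 called genes of smallest p per list, direction and comparison, the leading markers and those a sentence needed, and the 3 genes nearest to Yap1 and to Ankrd1. Alternatives were DESeq2 size factors, the DESeq2 1.42.0 Wald test, no count filter, at least 10 counts in every library, a fit of only 2 groups, a block for the replicate number, glmTreat against 1.5-fold, each library left out, a prior count of 0.5 and marker sums without the leading gene.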

Additional observations from a re-analysis of the deposited data

How the results depend on the processing

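Of 474 alternative values for the 10 members in the 3 comparisons, 439 kept their direction and their side of the thresholds, 27 lost a call and 8 changed sign. Those 8 belonged to differences near 0 that were not called. Only 18 of the 30 differences were called and could lose a call, and most lost calls were for miR-22 against untreated HCC. The values include fits without a liver of the group outside the comparison, which leave both compared groups whole. With at least 10 counts in every library, Yap1 in miR-22-treated against healthy liver was 0.013 and Amotl2 0.0033 on the log2 scale. With each library left out, Yap1 in that comparison ranged from −0.067 to 0.019, Amotl2 from −0.083 to 0.045, and Wwtr1 with miR-22 against untreated HCC from −0.079 to 0.014. For the 22 differences of listed genes named by the rule, 329 of 352 alternative values were on the same side, 23 lost the call and none changed sign. These values too include fits without a liver of the group outside the comparison.

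The counts of called members and listed genes for miR-22 against untreated HCC depended on the setting. Those for the other comparisons stayed within 1.5 times. This limit was reached in miR-22-treated against healthy liver by glmTreat, with 8 of 12 targets and 4 of 6 members. Over all tested genes that comparison went from 2650 called higher and 1065 lower to 1717 and 276 by glmTreat. With miR-22 against untreated HCC, the 5 members that fell were 3 with at least 10 counts in every library, a filter that Tead4 and Ankrd1 do not pass. They were 1 (Ajuba) when the fold was tested against 1.5 by glmTreat. With each library left out they were 2 to 5, lowest without untreated HCC replicate 3 or miR-22-treated replicate 3. Of all 15717 tested genes 839 were called lower there, against 45 by glmTreat and 1024 by the DESeq2 Wald test. With at least 10 counts in every library 670 of 12836 were called lower, and 843 of 15387 in a fit of the 2 groups. Without untreated HCC replicate 3 or miR-22-treated replicate 3 they were 479 of 16056 and 407 of 16237. The 4 further Hippo genes were 0 by glmTreat. The 4 further targets were 7 by the DESeq2 Wald test, 7 in a fit of the 2 groups, 0 by glmTreat and 2 to 7 with each library left out. The causes were not tested. DESeq2 size factors took Tead1 in miR-22-treated against healthy liver to 0.56, under the fold threshold.

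With the replicate number as a block, miR-22 against untreated HCC called 1 member, 2 Hippo genes and 1 target. Of all 15387 genes tested with this block 719 were called higher and 334 lower. In that fit Tead1 was −0.58, and edgeR adjusted p was 0.124 for Tead2, 0.0923 for Tead4 and 0.0525 for Ankrd1. Untreated and miR-22-treated livers with the same number correlated at −0.12, −0.13 and −0.24 in their distance from the group mean, none of these 6 livers correlated best with its own number, and the labels give no shared origin, so the numbers were not taken as pairs.

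Depth limits the folds of Ankrd1 against healthy liver, where 3 to 7 counts were read.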
